A study of Mus musculus with 12 samples.

Results

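Pyruvate made by glycolysis enters mitochondria through the mitochondrial pyruvate carrier and is turned into acetyl-CoA by the pyruvate dehydrogenase complex. The 10 genes described here code for that route: the carrier subunits Mpc1 and Mpc2, the catalytic subunits Pdha1, Pdhb and Dlat, the structural subunit Pdhx, the inhibitory kinases Pdk1, Pdk2 and Pdk3, and the activating phosphatase Pdp1. They were taken by gene symbol from the 57180 genes of the deposited tables, and 10 of 10 were among the 25446 genes tested.

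The libraries came from E14-dox-CRISPRi, a mouse embryonic stem cell line grown from 1 picked clone in which doxycycline switches on a nuclease-dead Cas9 repressor. Neg cells carried scramble guide RNAs and 3xKD cells carried guides to Pcx, Me1 and Me2, the genes of pyruvate carboxylase and of 2 malic enzymes, and both received doxycycline. Each genotype was sampled as naive embryonic stem cells (ESCs) kept in 2iLIF and as epiblast-like cells (EpiLCs) at day 2 in FAX medium (Activin A, Fgf2 and the Wnt-pathway inhibitor XAV939), a model of formative pluripotency. The study's methods state that its cell lines were kept in low, hypoxic oxygen. The 4 groups, Neg ESCs, 3xKD ESCs, Neg EpiLCs and 3xKD EpiLCs, held 3 libraries each (12 in all), and the question put to them was how loss of the enzymes that take pyruvate through oxaloacetate and malate goes with the genes that take it to acetyl-CoA, in each state. Every 3xKD library came from the same guide combination in the same parental clone, and the study's methods speak of biological triplicates for its experiments in general without saying what separated these libraries, so p-values measure the spread between them, which may be technical in part.

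Libraries held 11221023 to 19652197 estimated counts. In 3xKD cells the 3 targeted genes were lower in both states, with log2 fold changes of −0.89 to −1.14 in ESCs and −0.98 to −1.05 in EpiLCs. The labelled states carried their markers: the summed level of 7 naive genes was 3763.4 to 3865.5 CPM (read counts scaled to library size) in Neg ESCs against 214.9 to 222.8 CPM in Neg EpiLCs, and that of 5 formative genes was 125.3 to 125.7 CPM against 1944.4 to 2238.3 CPM. Against Neg cells of the same state, 3xKD cells had lower naive sums in ESCs, higher ones in EpiLCs, and lower formative sums in both: naive genes summed to 2677.5 to 2739.0 CPM in 3xKD ESCs and 318.8 to 332.0 CPM in 3xKD EpiLCs, and formative genes to 103.0 to 112.8 CPM and 922.1 to 943.7 CPM. Primitive endoderm markers (4 genes) summed to at most 23.1 CPM in Neg and 27.6 to 30.1 CPM in 3xKD ESCs, and to 22.2 to 26.7 CPM and 17.5 to 19.2 CPM in EpiLCs; among them Gata6 was called higher in 3xKD ESCs (0.78) and lower in 3xKD EpiLCs (−1.02). Mesoderm markers (3 genes) summed to 18.8 to 29.4 CPM over all libraries. Neural markers (3 genes, led by Sox1) summed to 6.46 to 11.0 CPM in ESCs, 72.7 to 75.4 CPM in Neg EpiLCs and 25.6 to 30.3 CPM in 3xKD EpiLCs. The part that cell state or these other cells play in the differences below was not tested.

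The pyruvate dehydrogenase complex is a mitochondrial assembly in which Pdha1 and Pdhb decarboxylate pyruvate, Dlat passes the acetyl group to coenzyme A from a lipoyl arm, and Pdhx anchors the lipoamide dehydrogenase Dld to the core. Phosphorylation of Pdha1 by the Pdk kinases switches the complex off, and removal of the phosphates by Pdp1 or Pdp2 switches it on again. High kinase expression is known as a mark of cells that send pyruvate to lactate, and the carrier genes are often low in cells of that kind. These controls act on protein, which was not measured here.

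A gene was called changed where edgeR's quasi-likelihood test gave an adjusted p under 0.01 (Benjamini-Hochberg, over all genes tested) and the log2 fold change was beyond 0.58 in size, and is said to have passed the p limit where the first condition held, whatever its fold change. Between 3xKD and Neg ESCs 1 of the 10 genes was called higher (Pdk3) and 1 lower (Pdhx), where 8.50% of all genes tested were called higher and 6.76% lower. The p limit was passed by 4 upward and 1 downward, called genes included, together 5 of 10 against 31.6% of all genes. Between 3xKD and Neg EpiLCs 1 was called higher (Pdk2) and 0 lower in edgeR and in DESeq2, against 7.88% and 5.35% of all genes; 1 lower gene, Pdhx, had an unadjusted p under 0.05. The p limit was passed there by 3 upward and 1 downward, against 29.9%. The members' median log2 fold change was 0.07 in ESCs and 0.10 in EpiLCs, and that of all genes tested was 0.03 in both. The 10 genes were thus called about as often as all genes tested, and the calls fell on Pdhx and on kinases, without a shared direction. The 4 comparisons share groups, so their values are set side by side and not correlated.

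**Figure D1:**
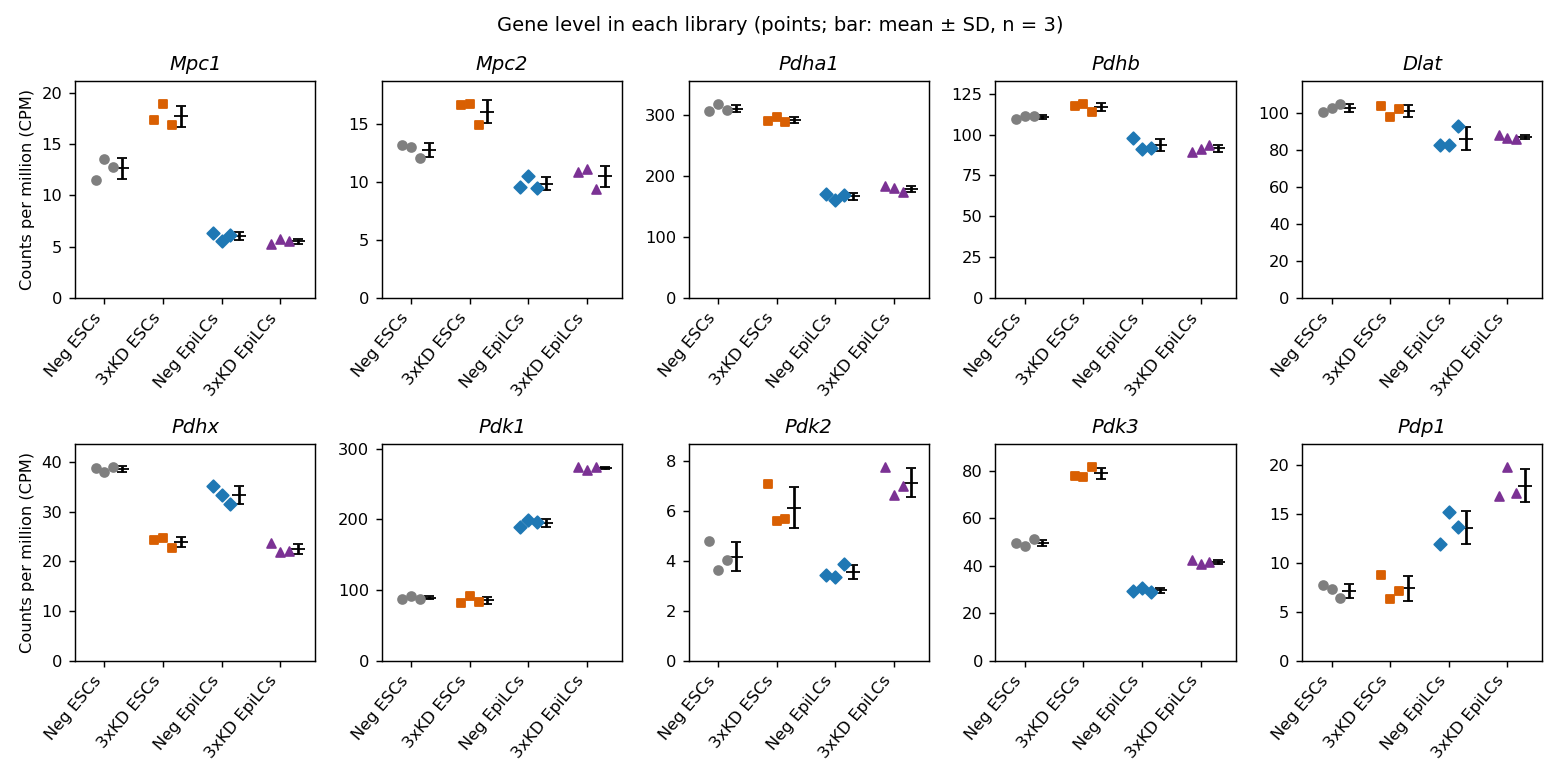
Level of each of the 10 genes in CPM (y axis, from 0) in the 4 groups (x axis); points are the 3 libraries of a group and the bar is their mean ± SD. Pdhx is lower and Pdk2 and Pdk3 are higher in every 3xKD library than in any Neg library of the same state, and Pdk1 is highest in 3xKD EpiLCs (270.4 to 274.2 CPM).

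**Figure D2:**
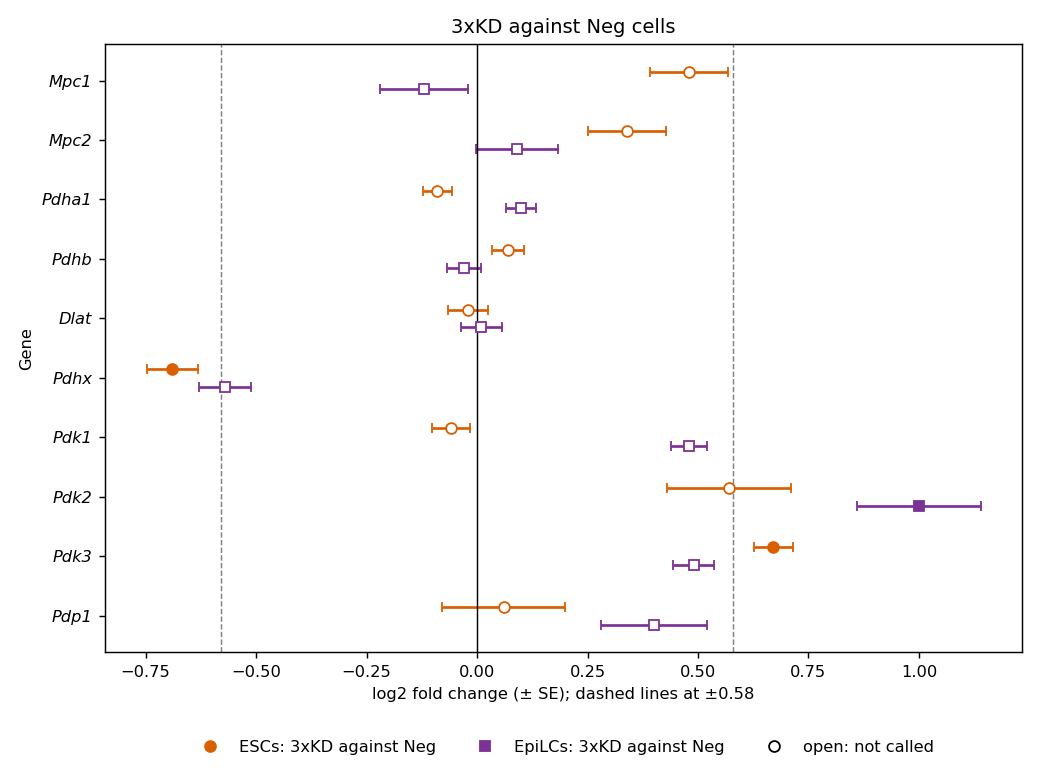
Log2 fold change ± SE of 3xKD against Neg cells (x axis) for each gene (y axis), circles for ESCs and squares for EpiLCs; filled symbols are called and dashed lines mark the fold limit of 0.58. Pdhx lies at −0.69 and −0.57, Pdk3 at 0.67 and 0.49 and Pdk2 at 0.57 and 1.00, while Dlat lies at −0.02 and 0.01.

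Levels between genes are compared in TPM, an abundance unit that divides by transcript length. In Neg ESCs the mean level was highest for Pdha1 (77.1 TPM), then Pdhb (62.6 TPM) and Dlat (41.3 TPM); the ranges of Pdha1 and Pdhb over libraries overlapped. Pdk1 (21.3 TPM), Pdk3 (18.3), Pdhx (16.8), Mpc1 (16.7) and Mpc2 (14.0) followed as a run of neighbours whose ranges overlapped. Pdp1 (1.82 TPM) and Pdk2 (1.65 TPM) came last and also overlapped. In 3xKD ESCs Pdk3 (31.1 TPM) stood ahead of Pdk1 (24.5 TPM) with overlapping ranges, and Pdhx (9.70 TPM) fell to eighth place, below Mpc2 (14.1 TPM) without overlap. In Neg EpiLCs Pdhb (64.3 TPM), Pdk1 (56.0) and Pdha1 (49.2) led, each overlapping the next. In 3xKD EpiLCs Pdk1 led at 92.0 TPM (81.4 to 104.2 TPM), above Pdhb at 54.8 TPM (50.2 to 60.3 TPM) with no overlap. These sums include transcripts not annotated as protein-coding, and the order depends on them. In 3xKD EpiLCs protein-coding transcripts held 11.8 TPM of Pdk1 (12.7% of its TPM) and 43.2 TPM of Pdhb. In Neg ESCs they held 13.8 TPM of Dlat (33.7%), under the 16.8 TPM of Pdhx with overlapping ranges.

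Mpc1 and Mpc2 code for the obligate partners that form the carrier. Mpc1 stood at 11.5, 13.6 and 12.8 CPM in the Neg ESC libraries and at 17.4, 18.9 and 16.9 CPM in the 3xKD ESC libraries. The groups did not overlap; the log2 fold change of 0.48 ± 0.089 (SE; adjusted p = 2.9e-04) passed the p limit and stayed short of the fold limit, but did not pass with offsets for transcript length (0.36, adjusted p = 0.22 in edgeR, and 0.32, adjusted p = 0.23 in DESeq2). In EpiLCs the gene fell to 6.34, 5.57 and 6.13 CPM in Neg libraries and 5.27, 5.75 and 5.56 CPM in 3xKD libraries, groups that overlapped (log2 fold change −0.12 ± 0.10, adjusted p = 0.47, approximate 95% interval −0.33 to 0.08). The difference between the 3xKD effects in EpiLCs and ESCs was −0.61 ± 0.14 (adjusted p = 0.0054), but this call was lost with DESeq2 (adjusted p = 0.030), with protein-coding transcripts alone (0.025), with library size alone (0.014), with offsets for transcript length (0.56 in edgeR and 0.58 in DESeq2) and when any of 6 libraries was left out (0.012 to 0.017). Mpc1 counts were 83 to 310 per library, which limits its precision.

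Mpc2 read 13.2, 13.0 and 12.1 CPM in Neg ESCs and 16.6, 16.7 and 14.9 CPM in 3xKD ESCs. Here too every 3xKD library was above every Neg library, by 0.34 ± 0.088 on the log2 scale (adjusted p = 0.0054), under the fold limit; without Neg ESCs replicate 2 or 3 or 3xKD ESCs replicate 1 or 2 it missed the p limit (0.013 to 0.033), as it did with DESeq2 (0.028), library size alone (0.011), protein-coding transcripts (0.013) and offsets for transcript length (0.15, adjusted p = 0.50 in edgeR, and 0.12, adjusted p = 0.61 in DESeq2). In EpiLCs its levels were 9.55, 10.5 and 9.48 CPM in Neg and 10.9, 11.1 and 9.43 CPM in 3xKD cells, which overlapped (log2 fold change 0.09, interval −0.09 to 0.27). With offsets for transcript length the EpiLC value turned to −0.19 (adjusted p = 0.40), still far from the limit.

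The catalytic subunits differed little between genotypes. Pdha1, which carries the phosphorylation sites of the complex, read 305.3, 316.9 and 307.1 CPM in Neg ESCs and 289.2, 296.2 and 288.5 CPM in 3xKD ESCs. In EpiLCs it read 170.2, 159.9 and 168.5 CPM in Neg and 182.7, 179.2 and 173.4 CPM in 3xKD cells. The groups did not overlap in either state, with opposite signs, but neither difference reached the limit (log2 fold change −0.09 ± 0.033, adjusted p = 0.043 in ESCs and 0.10 ± 0.034, adjusted p = 0.025 in EpiLCs). Their difference of 0.19 ± 0.047 had an adjusted p of 0.010, just above the limit, and came under it in 9 alternatives (6.6e-04 to 0.0068). With offsets for transcript length in edgeR it lay further above (0.17, adjusted p = 0.081).

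Pdhb, the partner of Pdha1, read 109.3 to 111.6 CPM in Neg ESCs and 113.8 to 118.5 CPM in 3xKD ESCs, a log2 difference of 0.07 (adjusted p = 0.13, interval 0.00 to 0.15). In EpiLCs its range was 90.9 to 98.1 CPM in Neg and 89.3 to 93.8 CPM in 3xKD cells (−0.03, interval −0.11 to 0.04). Dlat, the acetyltransferase core, read 100.3 to 104.6 CPM in Neg and 97.6 to 103.5 CPM in 3xKD ESCs, and 82.4 to 93.1 CPM against 85.9 to 87.9 CPM in EpiLCs. The intervals of its log2 differences, −0.11 to 0.07 and −0.08 to 0.10, leave room only for changes far smaller than the fold limit.

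Pdhx was the member that fell in 3xKD cells. It read 38.8, 37.9 and 39.0 CPM in Neg ESCs and 24.2, 24.6 and 22.7 CPM in 3xKD ESCs. In EpiLCs it read 35.2, 33.3 and 31.5 CPM in Neg and 23.6, 21.9 and 22.0 CPM in 3xKD libraries. All 3xKD libraries of both states lay between 21.9 and 24.6 CPM, and no Neg library was under 31.5 CPM. The log2 fold change was −0.69 ± 0.058 in ESCs (adjusted p = 6.0e-08), or 0.619-fold, and −0.57 ± 0.059 in EpiLCs (adjusted p = 7.6e-07), 0.676-fold and just inside the fold limit. The EpiLC difference was called when only the 2 EpiLC groups were fitted (−0.58) and without Neg EpiLCs replicate 3 or 3xKD EpiLCs replicate 1 (−0.60 each). With offsets for transcript length it was −0.48 and missed the p limit in edgeR (adjusted p = 0.030). In DESeq2 with offsets it was −0.47 and passed (adjusted p = 0.0079). The ESC difference stayed called with offsets (−0.68, adjusted p = 0.0039 in edgeR). The fall did not differ detectably between states (difference 0.13 ± 0.083, adjusted p = 0.37, interval −0.04 to 0.29).

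Pdhx lies on the minus strand at chr2:102849769-102904060 (GRCm39), head to head with Apip, a methionine-salvage enzyme gene on the plus strand at chr2:102903972-102926603 whose canonical start is 88 bases away; the gene bodies overlap by 89 bases. Apip did not fall with it: its log2 fold change was 0.21 ± 0.12 in ESCs (adjusted p = 0.18) and 0.45 ± 0.13 in EpiLCs (adjusted p = 0.0092, under the fold limit). As a check on direct guide pairing, the windows of 1000 bases either side of the canonical start sites were searched for the 3 guides next to an NGG. The closest match at Pdhx had 7 mismatches, and 63.7% of 21770 start sites had a match at least that close. The members' closest matches had 6 to 8 mismatches, against 0 at Pcx, Me1 and Me2. The scramble guides of Neg cells, and sequence away from these start sites, were not searched. What caused the fall of Pdhx was not tested.

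The kinases differed in how they moved. In edgeR without offsets for transcript length, Pdk2 and Pdk3 rose past the p limit in 3xKD cells of both states. Pdk1, summed over its transcripts, did so in EpiLCs but not in ESCs. With those offsets Pdk2 passed in neither state and Pdk3 in ESCs alone. Bases −250 to −1 before their canonical start sites are shown because Pdk1 is a textbook target of the hypoxia-inducible factors, whose binding sites contain ACGTG or GCGTG. The letters were read 5′ to 3′ on the gene's strand from the GRCm39 genome, and capitals mark ACGTG or GCGTG on either strand (CACGT and CACGC when read on the other).

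Pdk1, chr2:71703238-71703487, plus strand: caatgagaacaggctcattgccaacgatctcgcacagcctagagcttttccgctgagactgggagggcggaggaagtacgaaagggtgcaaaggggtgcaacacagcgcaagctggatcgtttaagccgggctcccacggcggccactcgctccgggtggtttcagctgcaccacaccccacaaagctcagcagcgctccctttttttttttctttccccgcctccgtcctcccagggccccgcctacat

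Pdk2, chr11:94932241-94932490, minus strand: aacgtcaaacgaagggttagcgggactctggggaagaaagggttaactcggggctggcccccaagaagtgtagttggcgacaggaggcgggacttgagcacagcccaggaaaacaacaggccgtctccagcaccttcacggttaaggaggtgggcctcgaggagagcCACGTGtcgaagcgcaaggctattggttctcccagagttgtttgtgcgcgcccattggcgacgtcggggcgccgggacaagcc

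Pdk3, chrX:92875928-92876177, minus strand: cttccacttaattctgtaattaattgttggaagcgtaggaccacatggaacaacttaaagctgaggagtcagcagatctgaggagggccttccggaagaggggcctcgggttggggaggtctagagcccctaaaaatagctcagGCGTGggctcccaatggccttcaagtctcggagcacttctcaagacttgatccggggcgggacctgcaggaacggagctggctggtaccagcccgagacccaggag

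The window of Pdk1 held 0 matches, that of Pdk3 held 1 GCGTG at position −106, and that of Pdk2 held ACGTG on both strands, overlapping as 1 CACGTG from −83. ACGTG or GCGTG occurs in 41.3% of the 21770 windows of this kind and CACGTG in 6.26%, so a match is common. The result depends on the start site: in the window before the RefSeq start, which lies 80 bases from the canonical start used here, Pdk1 has 1 GCGTG, and in the RefSeq window of Pdk3, 171 bases from it, there are 4. A match is a run of letters and not a measured site.

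Pdk3, the kinase known for the highest activity and for tolerance of high pyruvate, read 49.4, 48.3 and 51.1 CPM in Neg ESCs and 77.8, 77.2 and 81.6 CPM in 3xKD ESCs. In EpiLCs it read 29.4, 30.7 and 28.8 CPM in Neg and 42.6, 40.7 and 41.6 CPM in 3xKD cells. The 3xKD libraries were above the Neg libraries in both states with wide gaps. The log2 fold change was 0.67 ± 0.044 in ESCs (adjusted p = 3.2e-09), 1.59-fold, and 0.49 ± 0.047 in EpiLCs (adjusted p = 2.7e-07), 1.41-fold and short of the fold limit. With offsets for transcript length the EpiLC value missed the p limit (0.31, adjusted p = 0.042 in edgeR, and 0.32, adjusted p = 0.012 in DESeq2). The ESC value with offsets was 0.91 (adjusted p = 3.5e-05 in edgeR). The nearest other protein-coding start, that of Gm61616, was 90393 bases away and the gene was too low to be tested.

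Pdk2, the most widely expressed kinase in adult tissues, was scarce here, at 50 to 125 counts per library. It read 4.79, 3.65 and 4.03 CPM in Neg ESCs, 7.07, 5.61 and 5.68 CPM in 3xKD ESCs, 3.45, 3.36 and 3.86 CPM in Neg EpiLCs, and 7.76, 6.65 and 6.99 CPM in 3xKD EpiLCs. No 3xKD library overlapped a Neg library. The log2 fold change was 1.00 ± 0.14 in EpiLCs (adjusted p = 2.5e-05) and 0.57 ± 0.14 in ESCs (adjusted p = 0.0041), the latter short of the fold limit by a margin that 8 alternatives removed (0.59 to 0.67). Without Neg ESCs replicate 2 or 3 or 3xKD ESCs replicate 1 the ESC value missed the p limit (adjusted p 0.018 to 0.024), as it did with DESeq2 (adjusted p = 0.019) and with offsets (0.29, adjusted p = 0.53). With offsets for transcript length the EpiLC value was 0.75 and lost its call (adjusted p = 0.091 in edgeR and 0.051 in DESeq2), while with protein-coding transcripts alone it was 1.16 (adjusted p = 4.1e-05). The difference between states, 0.43 ± 0.20, did not pass (adjusted p = 0.18). Samd14, whose gene body overlaps that of Pdk2 by 1989 bases on the other strand, was at or under 1.17 CPM in group mean and did not pass in either state.

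Pdk1 read 87.5, 91.6 and 87.7 CPM in Neg ESCs and 81.0, 91.3 and 83.6 CPM in 3xKD ESCs, which overlapped (log2 fold change −0.06 ± 0.043, adjusted p = 0.30, interval −0.14 to 0.02). In EpiLCs it read 189.3, 199.8 and 196.9 CPM in Neg and 274.2, 270.4 and 273.5 CPM in 3xKD cells. There the groups were far apart relative to their spread, with a log2 fold change of 0.48 ± 0.040 (adjusted p = 5.0e-08), 1.40-fold and short of the fold limit. The difference of the 3xKD effect between EpiLCs and ESCs was 0.54 ± 0.058 (adjusted p = 6.3e-06), and with offsets for transcript length in edgeR its adjusted p was 0.011. Across the 10 members this difference passed for 1 upward (Pdk1) and 1 downward (Mpc1), where 10.03% of all genes passed in either direction.

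The Pdk1 difference was not spread evenly over the gene's transcripts. Of its 8 annotated transcripts, Pdk1-201 (11 exons, 5265 bases) is the protein-coding transcript, and the other 7, among them Pdk1-208 (9 exons, 2972 bases), have no coding sequence defined in the annotation. By the authors' estimates Pdk1-201 held 94.5, 100.1 and 101.4 CPM in Neg EpiLCs and 93.1, 85.7 and 82.2 CPM in 3xKD EpiLCs, so that every 3xKD library was below every Neg library. The other transcripts together held 94.7, 99.7 and 95.5 CPM in Neg EpiLCs and 181.1, 184.7 and 191.3 CPM in 3xKD EpiLCs. The rise of the gene in 3xKD EpiLCs therefore lay in the estimates of transcripts with no coding sequence defined.

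Among these, Pdk1-208 went from 81.9 ± 0.135 to 146.2 ± 3.61 CPM (SD, n = 3), Pdk1-204 from 2.45 ± 0.299 to 13.6 ± 0.859 CPM and Pdk1-206 from 9.78 ± 2.77 to 17.4 ± 2.58 CPM, in Neg and 3xKD EpiLCs respectively. All 3 start downstream of the Pdk1-201 start and end before its 3′ end: Pdk1-208 spans chr2:71703690-71732330 inside chr2:71703488-71734202. In ESCs Pdk1-201 held 46.9 to 49.6 CPM in Neg and 35.2 to 41.7 CPM in 3xKD cells, and the others 38.2 to 44.7 and 43.3 to 49.5 CPM. Pdk1-201 made up 29.2% and 18.7% of the gene's TPM in Neg and 3xKD ESCs, and 26.9% and 12.7% in Neg and 3xKD EpiLCs. Pdk1-208 overlaps Pdk1-201 along most of the gene, while Pdk1-204 and Pdk1-206 overlap only the first part of its span. The split of counts between these transcripts is an estimate whose own error is not part of the SD.

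The same test run across all genes on protein-coding transcripts alone, an alternative chosen after seeing these values, gave Pdk1 a log2 fold change of −0.14 ± 0.057 in EpiLCs (adjusted p = 0.053) and −0.30 ± 0.065 in ESCs (adjusted p = 0.0015), and a difference between states of 0.16 ± 0.087 (adjusted p = 0.24). Offsets for transcript length, which correct for a shift toward short transcripts, moved the gene the other way, to 0.88 in EpiLCs (adjusted p = 6.8e-06) and 0.34 in ESCs (adjusted p = 0.0058). The size of the Pdk1 difference thus depends on which of its transcripts are counted. For Pdhx and Pdk3 the protein-coding value stayed near that of the whole gene (−0.69 and 0.65 in ESCs, −0.53 and 0.54 in EpiLCs). It could hardly differ, because nearly the same counts were used. All 3 Pdhx transcripts are annotated as protein-coding, and the other Pdk3 transcripts held at most 2.20 CPM in a library.

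**Figure D3:**
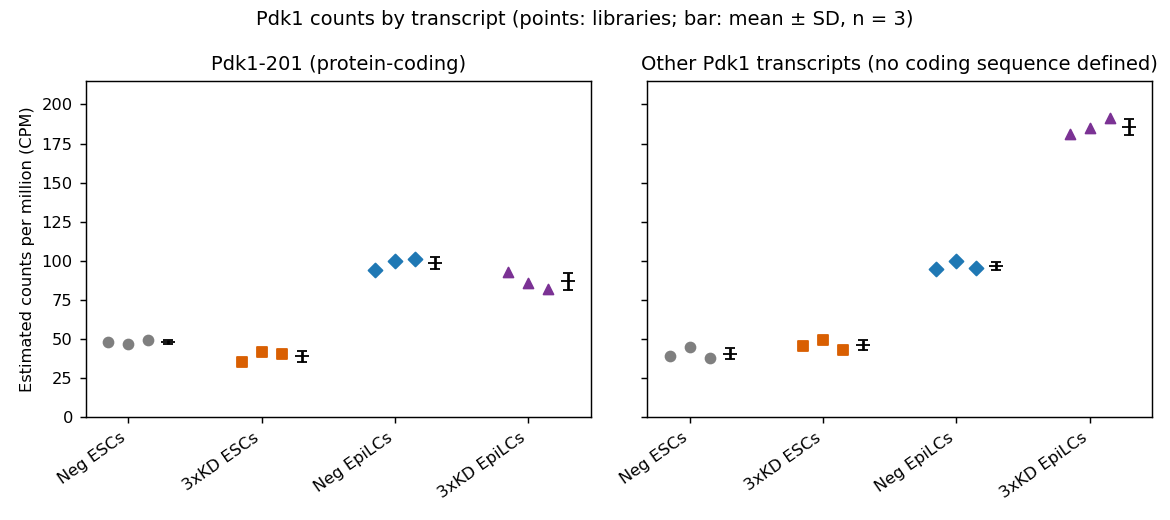
Estimated counts in CPM (y axis, from 0) of the protein-coding transcript Pdk1-201 (left) and of the 7 Pdk1 transcripts with no coding sequence defined (right) in the 4 groups; points are libraries and the bar is the mean ± SD. In 3xKD EpiLCs Pdk1-201 sits at 82.2 to 93.1 CPM, under the Neg EpiLC libraries, while the other transcripts sit at 181.1 to 191.3 CPM, above them.

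Pdp1, the calcium-stimulated phosphatase that reactivates the complex, read 7.71, 7.36 and 6.37 CPM in Neg ESCs and 8.79, 6.28 and 7.12 CPM in 3xKD ESCs, which overlapped (log2 fold change 0.06, interval −0.21 to 0.33). In EpiLCs it read 11.9, 15.2 and 13.7 CPM in Neg and 16.8, 19.8 and 17.1 CPM in 3xKD cells. The groups did not overlap there, but the log2 fold change of 0.40 ± 0.12 missed the limit (adjusted p = 0.013).

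The passage from ESCs to EpiLCs moved more of the members than the knockdown did. In Neg cells 2 genes were called higher in EpiLCs (Pdk1 and Pdp1) and 3 lower (Mpc1, Pdha1 and Pdk3), where 9.78% of all genes were called higher and 11.0% lower; 9 of 10 passed the p limit, against 35.7% of all genes. In 3xKD cells the same 2 were called higher and 4 lower (the same 3 and Mpc2), against 9.42% and 9.32%, and 8 of 10 passed the p limit, against 33.8%. The members' median log2 fold change was −0.25 in Neg and −0.28 in 3xKD cells, against 0.01 for all genes in both. In bulk RNA a lower level in fewer cells and a lower level per cell cannot be told apart.

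Pdk1 rose most, by 1.13 ± 0.042 on the log2 scale in Neg cells (adjusted p = 6.9e-13), 2.20-fold, and by 1.68 ± 0.042 in 3xKD cells (adjusted p = 6.9e-15), 3.20-fold. Unlike the knockdown difference, this rise was present in the protein-coding transcript, which was higher in EpiLCs by 1.03 in Neg and 1.18 in 3xKD cells. Pdp1 rose by 0.94 ± 0.13 (adjusted p = 1.3e-05) and 1.27 ± 0.13 (adjusted p = 3.0e-07), so an inhibitory kinase and this activating phosphatase were both higher in EpiLCs. The other phosphatase, Pdp2, went the opposite way, from a mean of 11.6 TPM in Neg ESCs to 3.50 TPM in Neg EpiLCs. Pdp1 had means of 1.82 and 4.09 TPM in those groups. In 3xKD ESCs and EpiLCs the means were 9.27 and 3.56 TPM for Pdp2 and 1.66 and 4.70 TPM for Pdp1.

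Mpc1 fell by 1.07 in Neg cells (SE 0.097, adjusted p = 8.5e-08), to 0.475-fold, and by 1.68 in 3xKD cells (SE 0.096, adjusted p = 3.0e-10), to 0.312-fold. Mpc2 fell less, by 0.37 in Neg cells (adjusted p = 0.0032) and by 0.61 in 3xKD cells (adjusted p = 2.4e-05). The Neg value missed the p limit in DESeq2 (adjusted p = 0.028) and with offsets for transcript length (0.063 in edgeR). The 3xKD call was lost with upper-quartile factors (−0.54), with library size alone (−0.58) and without 3xKD ESCs replicate 1 (−0.58) or 3xKD EpiLCs replicate 3 (−0.53). Pdha1 fell by 0.90 (adjusted p = 9.8e-13) and by 0.71 (adjusted p = 3.0e-11). Its partner Pdhb fell by 0.24 and 0.35 and Dlat by 0.25 and 0.22, all past the p limit and under the fold limit. With offsets in edgeR the fall of Pdhb in 3xKD cells still passed (−0.28, adjusted p = 0.0073). The Neg value of Pdhb (adjusted p = 0.083) and both values of Dlat (0.040 in Neg and 0.076 in 3xKD cells) did not. The subunits of the complex thus fell to unequal extents, with Pdha1 furthest.

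Pdk3 fell by 0.75 in Neg cells (SE 0.047, adjusted p = 7.5e-10) and by 0.92 in 3xKD cells (SE 0.044, adjusted p = 3.2e-11), opposite in sign to Pdk1. Pdk2 passed in neither genotype (−0.21, adjusted p = 0.30, and 0.22, adjusted p = 0.22). Pdhx fell by 0.21 in Neg cells (adjusted p = 0.0059) and its value in 3xKD cells was −0.08 (adjusted p = 0.30, interval −0.20 to 0.03). The Neg fall missed the p limit in DESeq2 (−0.19, adjusted p = 0.054) and with offsets in edgeR (−0.24, adjusted p = 0.24). The kinases therefore differed among themselves, Pdk1 being higher in EpiLCs and Pdk3 in ESCs. For Pdk2 only the genotype differences passed, in edgeR without offsets, and with offsets for transcript length they did not. Its intervals between states, −0.51 to 0.08 in Neg and −0.04 to 0.49 in 3xKD cells, do not exclude a change.

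**Figure D4:**
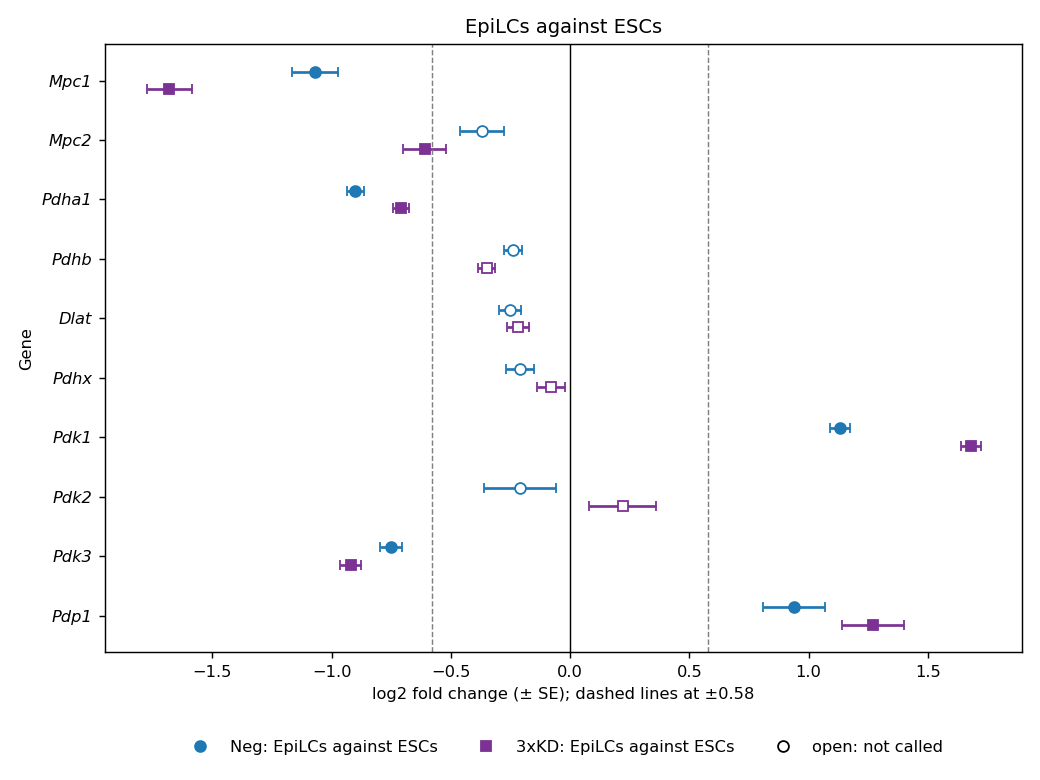
Log2 fold change ± SE of EpiLCs against ESCs (x axis) for each gene (y axis), circles for Neg and squares for 3xKD cells; filled symbols are called and dashed lines mark the fold limit of 0.58. Pdk1 (1.13 and 1.68) and Pdp1 (0.94 and 1.27) lie to the right, and Mpc1 (−1.07 and −1.68), Pdha1 (−0.90 and −0.71) and Pdk3 (−0.75 and −0.92) to the left.

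Other genes that work with the complex were taken from lists chosen with earlier results of these data known. Counts of called genes within these lists are descriptions and not independent tests. Of 6 partner genes, 5 were tested. Pdk4, the kinase induced by fasting and fatty acids, was called higher in 3xKD cells in both states, from 6.13 to 6.42 CPM in Neg ESCs to 18.0 to 21.2 CPM in 3xKD ESCs (log2 fold change 1.65 ± 0.11, adjusted p = 3.5e-09) and from 2.59 to 3.79 CPM to 10.1 to 10.9 CPM in EpiLCs (1.73 ± 0.12, adjusted p = 9.1e-09). In edgeR without offsets for transcript length, its fold changes exceeded those of Pdk1, Pdk2 and Pdk3 in both states, from a low level. In TPM its ranges overlapped in ESCs (1.08 to 3.36 in Neg and 2.82 to 3.97 in 3xKD libraries). They did not overlap in EpiLCs (0.549 to 0.916 in Neg and 1.94 to 2.52 in 3xKD libraries). The ESC ranking of the kinases therefore depends on the unit. Pdp2, the insulin-responsive phosphatase, was called lower in EpiLCs, by 1.99 in Neg cells (adjusted p = 5.4e-15) and by 1.59 in 3xKD cells (adjusted p = 1.4e-13), opposite in sign to Pdp1. The shared dehydrogenase Dld had values of 0.01 in ESCs (adjusted p = 0.94) and −0.18 in EpiLCs (adjusted p = 0.0046). Pdha2, the intronless testis copy of Pdha1 whose reads may be divided with it, was called higher in Neg EpiLCs than Neg ESCs (0.92 ± 0.098, adjusted p = 5.7e-07).

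The complex also needs lipoic acid, iron-sulfur clusters and thiamine. Of 15 genes that supply them, 1 was called lower in 3xKD cells, in ESCs and in EpiLCs, against 6.76% and 5.35% of all genes. It was Iba57, which takes part in late iron-sulfur cluster assembly, with log2 fold changes of −1.12 ± 0.17 (adjusted p = 3.7e-05) and −1.25 ± 0.17 (adjusted p = 1.2e-05). Of 9 genes of the sister 2-oxoacid dehydrogenase complexes, edgeR and DESeq2 called 0 between genotypes in either state. Of all genes, edgeR called 8.50% higher and 6.76% lower in ESCs, and 7.88% and 5.35% in EpiLCs. The p limit was passed by 6 of the 9 in ESCs and 5 in EpiLCs, against 31.6% and 29.9% of all genes. In each state 7 had an unadjusted p under 0.05. Bckdha, of the branched-chain complex, was called higher in EpiLCs in both genotypes (0.73 and 1.07).

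The list of 10 genes for other sources and fates of pyruvate was also chosen with earlier results known. Of its genes, 4 were called higher in 3xKD ESCs and 2 in 3xKD EpiLCs (3 with DESeq2). The shares of all genes were 8.50% and 7.88%, and the list's medians were 0.59 and 0.24. Ldhb, the lactate dehydrogenase subunit of oxidative tissues, rose from 96.3 to 104.1 CPM to 297.5 to 315.3 CPM in ESCs (1.62 ± 0.047, adjusted p = 6.0e-13) and from 61.2 to 66.6 CPM to 102.0 to 114.8 CPM in EpiLCs (0.77 ± 0.049, adjusted p = 2.3e-09). Gpt2, the mitochondrial alanine transaminase, rose by 1.29 ± 0.052 (adjusted p = 1.5e-11) and 1.40 ± 0.055 (adjusted p = 1.6e-11). The lactate exporter Slc16a3 (0.80, adjusted p = 2.4e-10) and its chaperone Bsg (0.66, adjusted p = 2.5e-10) rose in 3xKD ESCs. In EpiLCs Slc16a3 went the other way (−0.20, adjusted p = 7.9e-04, under the fold limit), and its effects in the states differed (interval of the difference −1.11 to −0.88, adjusted p = 6.7e-09).

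Genes whose levels followed a member most closely over the 12 libraries were found by the root-mean-square difference of centred log2(CPM + 1) values, over the 9634 genes whose mean reached 10 CPM. The closest to Pdhx were Cacul1 (0.047), Fam91a1 (0.058) and Nucks1 (0.067), to Pdk3 Pald1 (0.059), Pecam1 (0.067) and Gsta4 (0.068), and to Pdk1 Hes6 (0.108), Dppa4 (0.109) and Abcc4 (0.122). Pdha1 was nearest to Pip4k2c (0.043), Mtss2 (0.047) and Rbbp5 (0.054), and Mpc2 to Fuca1 (0.067), Oxct1 (0.067) and Stam (0.068). For the scarce Pdk2 the closest were Csad (0.121), Ptms (0.122) and Neil3 (0.123), and for Pdp1 Hps3 (0.143), Ctnnal1 (0.151) and Aldh2 (0.154). The measure is on the log2 scale and describes these libraries, which share their 4 groups.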

How the data were processed

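RNA was sequenced from 12 libraries as directional single-end reads after ribosomal RNA depletion, although GEO's molecule field reads polyA RNA. Groups were taken from sample titles, since the cell-type field gives all Neg libraries as ESCs and all 3xKD libraries as EpiLCs. Per the study's methods and the submitters' processing notes, the authors trimmed reads with Trim Galore 0.6.7, aligned them with STAR 2.7.9a to GRCm39 and quantified transcripts with Salmon 1.10.1. The deposited files hold, per transcript, the estimated counts and the TPM that Salmon gave the authors.

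Counts were summed per gene and rounded, and the 25446 of 57180 genes that reached 10 counts in total were tested with TMM factors and edgeR 4.0.16 quasi-likelihood tests in R 4.3.3, all 4 groups in 1 fit, with Benjamini-Hochberg adjustment. CPM use TMM library sizes, a standard error is the log2 fold change over the root of F, and intervals are 1.96 standard errors either side. The tests were checked on simulated data. DESeq2 1.42.0, other scalings and filters, transcript-length offsets and leaving out each library were alternatives.

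The 10 members and all gene lists were chosen with earlier results of these data known. Named genes were all members, the 2 largest called changes per list and comparison, the knockdown targets and state markers, the nearest start sites and the 3 most alike genes; a few results that this rule selects are not reported here. Gene positions came from GENCODE on GRCm39. No library repeated another: chi-square over degrees of freedom within groups was 2.99 to 18.4. Summed TPM was used to order genes and, for Pdk4, Pdp1 and Pdp2, to give levels beside CPM.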

Additional observations from a re-analysis of the deposited data

Results flagged for a closer look

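For 2 of the 10 genes the effect of the knockdown differed between EpiLCs and ESCs in edgeR's interaction test. For Mpc1 the difference was −0.61 on the log2 scale (adjusted p = 0.0054), from 0.48 in ESCs and −0.12 in EpiLCs, and it lost its call in several alternatives. For Pdk1 it was 0.54 (adjusted p = 6.3e-06), from −0.06 in ESCs and 0.48 in EpiLCs, and with protein-coding transcripts alone it was 0.16 (adjusted p = 0.24).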

How the results depend on the processing

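Of the members' values recomputed under other settings with all libraries, 551 kept their direction and their side of the limit, 13 turned, 11 lost and 15 gained a call. The numbers of members called in the ESC, EpiLC and Neg-transition comparisons (2, 1 and 5) became 6, 6 and 9 with an adjusted p under 0.05 and no fold limit. The EpiLC count became 2 with only the groups compared. Members past the p limit became 3 in ESCs with DESeq2 or with transcript-length offsets, 1 in EpiLCs with offsets and 2 with offsets in DESeq2, and 5 in the Neg transition with offsets in either tool. Members whose effect differed between states (2) became 0 with offsets in edgeR, 3 with offsets in DESeq2, and 1, Pdha1, with protein-coding transcripts alone. Values that turned sign were, in ESCs, Dlat 0.09 with offsets and 0.06 in DESeq2 with offsets, Pdk1 0.34 and 0.31, and Pdp1 −0.01 in DESeq2 with offsets. In EpiLCs they were Mpc1 0.00 in both, Mpc2 −0.19 and −0.18, Pdhb 0.03 with library size alone, Dlat −0.00 with only the groups compared and −0.01 with protein-coding transcripts, and Pdk1 −0.14 with protein-coding transcripts. Among these only the ESC values of Pdk1 passed the p limit. The Pdk3 difference between states was called in DESeq2 with offsets (−0.56, adjusted p = 0.0029). The cause of these shifts was not tested.

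Leaving out 1 library at a time, 572 values kept direction and side. Members past the p limit ranged from 3 to 5 in ESCs (3 without Neg ESCs replicate 2 or 3 or 3xKD ESCs replicate 1), members called from 1 to 2 in EpiLCs (2 without Neg EpiLCs replicate 3 or 3xKD EpiLCs replicate 1), and members whose effect differed between states from 1 to 2 (1 without Neg ESCs replicate 1 or 3, 3xKD ESCs replicate 2, Neg EpiLCs replicate 1 or 3, or 3xKD EpiLCs replicate 1). Values that crossed 0 ranged from −0.04 to 0.01 (Dlat), −0.11 to 0.00 (Pdk1) and −0.05 to 0.17 (Pdp1) in ESCs, from −0.05 to 0.00 (Pdhb) and −0.01 to 0.07 (Dlat) in EpiLCs, and from −0.02 to 0.10 for the Dlat difference between states.

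Same-numbered libraries of different groups did not deviate together (r −0.135 to 0.1, median −0.013, over 18 pairs and 15032 genes, against −0.146 to 0.181 for other numbers), so the numbers were not taken as pairing. With the replicate block the counts of called members stayed at 2, 1, 5, 6 and 2, and Pdhx stood at −0.70 and Pdk1 at 0.48 in ESCs and EpiLCs respectively. Mpc1, Mpc2, Pdk2 and Pdp1, at 50 to 310 counts per library, are limited most by depth.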
